A study of Macaca mulatta with 4 samples.

Results

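The alpha-1 subunits of the voltage-gated calcium channels form the pore and carry the voltage sensor, and each of them sets the channel type to which it belongs. The 8 genes described here were CACNA1A, CACNA1B, CACNA1C, CACNA1D, CACNA1E, CACNA1G, CACNA1H and CACNA1I, chosen by gene symbol from the 30807 genes of the count matrices. They were measured by single-nucleus RNA sequencing of the cerebellum of rhesus macaque fetuses. The Control group had no intervention and held 1 female and 1 male fetus, both at 130 days of gestation. The LPS group received 1 mg of intra-amniotic lipopolysaccharide, a bacterial cell wall component used to model chorioamnionitis, 5 days before collection, and held 1 female at 131 days and 1 male at 133 days. Each fetus gave 1 library, so the spread between libraries was a spread between animals, and in each group it was also a spread between a female and a male.

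Calcium entering through these channels triggers transmitter release at nerve terminals, shapes firing in the soma and dendrites, and reaches the nucleus as a signal for gene expression. In the cerebellum the P/Q type, formed by CACNA1A, takes its name in part from Purkinje cells, the inhibitory output neurons of the cerebellar cortex, and inherited defects of CACNA1A cause ataxia. The N type of CACNA1B and the R type of CACNA1E also open at strong depolarisation, the L types of CACNA1C and CACNA1D give long-lasting currents, and the T types of CACNA1G, CACNA1H and CACNA1I open briefly near the resting potential and serve rhythmic firing.

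The 4 libraries held 34282015 to 61665690 unique molecular identifiers (UMIs, counts of single captured RNA molecules), and 32587 barcodes with at least 500 detected genes were used as nuclei. Median UMIs per nucleus were 4506 in the Control female, 1882 in the Control male, 4062 in the LPS female and 2308 in the LPS male, and the mean mitochondrial share was 0.268%, 0.0214%, 0.231% and 0.0327%. The female libraries were thus deeper per nucleus and higher in mitochondrial RNA than the male libraries, in either exposure group. The share of the UMIs of granule nuclei estimated to come from RNA free in the suspension was 11.9% to 20.3%, highest in the LPS male. Each pair of libraries shared 16 to 22 barcodes.

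Nuclei were clustered without the 8 genes and without related calcium genes, and clusters were named from marker genes, so that a class name stands for a cluster like the named cells. The granule lineage, the excitatory neurons that proliferate in the outer layer and migrate inward, held 22278 nuclei (68.4%), and it was divided into 6 stages from proliferating precursors to mature granule cells. Its 7 clusters were among those in which no other class reached a marker score of 1, and their stage scores were 1.03 to 2.1. Against whole classes their best scores were only 0.263 to 0.772, and the clusters of the maturing and later stages scored higher for markers of excitatory neurons of the cerebellar nuclei, and that of proliferating precursors for proliferating glia, than for the granule list. Among the small classes, Purkinje cells had 128 nuclei, Golgi cells 198, molecular layer interneurons 307, unipolar brush cells 76 and PAX2 immature interneurons 1338. Unipolar brush cells had only 8 nuclei in the Control male, which were left out of the sums, and choroid or ependymal cells reached 10 nuclei only in the LPS libraries. Mural cells, with 6 to 9 nuclei a library, were not tested. Levels are given in CPM, the UMIs of a gene as a share of all UMIs of its class in a library on the usual sequencing scale. The transcript lengths of the build used were not at hand, so CPM values of different genes are not compared.

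The 8 genes differed widely in counts. CACNA1A gave 152363 UMIs in all nuclei, CACNA1B 73708, CACNA1E 45033, CACNA1C 27526, CACNA1G 26593 and CACNA1D 7817, whereas CACNA1H gave 880 and CACNA1I 514, so that statements on the last 2 rest on little material. Each gene was then tested in each of 14 classes against the mean of the other 13 with edgeR's quasi-likelihood test on UMIs summed per class and library, with the library as a block. A gene was called where its log2 difference exceeded 1 in either direction and its Benjamini-Hochberg adjusted p, over all 12159 genes tested, was below 0.05. Of the 112 tests of the 8 genes, 31 were called higher and 21 lower. In the classes with higher calls 5.96% to 14.3% of all genes were called higher. In those with lower calls 2.70% to 11.8% of all genes were called lower. The higher calls lay in neurons, apart from 1 in the oligodendrocyte lineage, and the lower calls lay in glia, vessels, meninges, microglia and choroid, apart from CACNA1C in molecular layer interneurons.

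**Figure D1:**
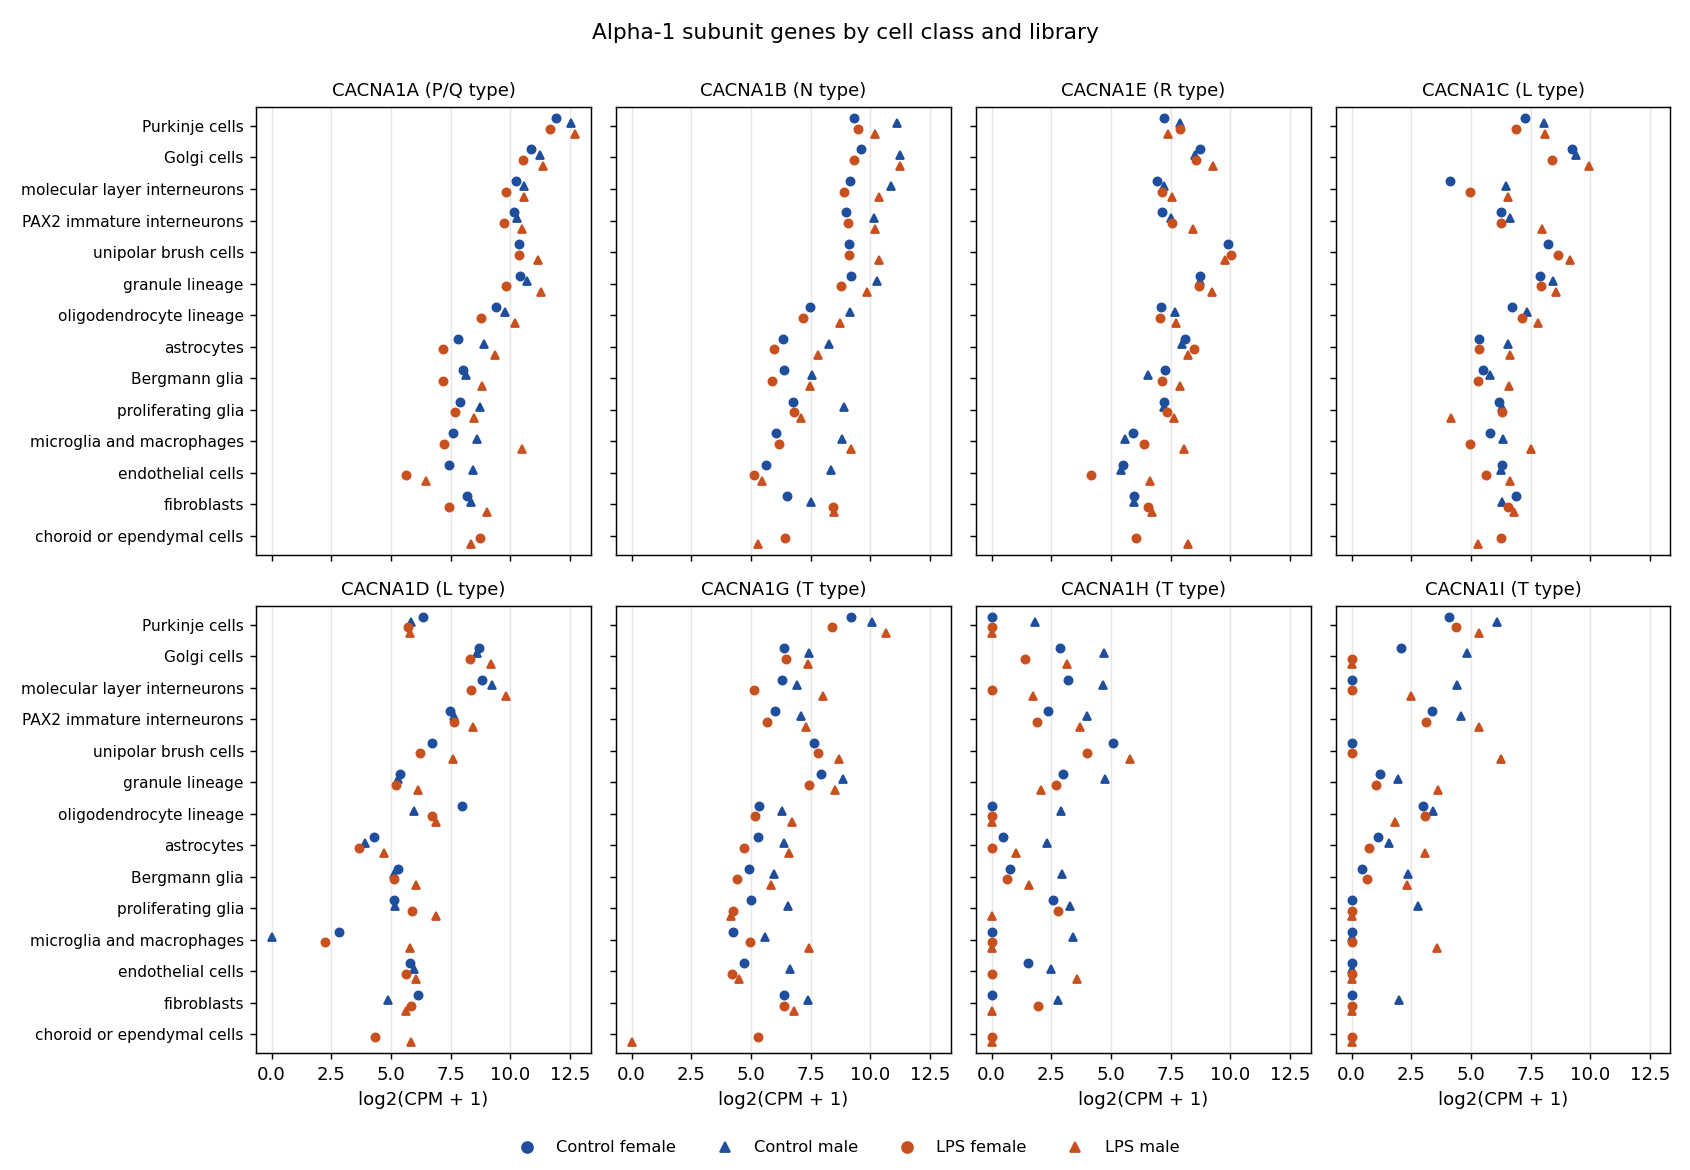
Level of each alpha-1 gene (1 panel a gene) by cell class, as log2(CPM + 1), with 1 point per library, blue for Control and orange for LPS, circles for females and triangles for males; sums of under 10 nuclei are not drawn. Points lie furthest right for CACNA1A and CACNA1G in Purkinje cells, for CACNA1D in molecular layer interneurons and for CACNA1E in unipolar brush cells, and for CACNA1B the triangles lie to the right of the circles in most classes.

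CACNA1A, the P/Q-type subunit that drives release at most central synapses, was highest in Purkinje cells in each of the 4 libraries. Its level there was 3891 CPM in the Control female, 5988 in the Control male, 3207 in the LPS female and 6756 in the LPS male (mean 4960 ± 1683, SD, n = 4). Golgi cells, inhibitory interneurons of the granular layer, came next with 1869, 2443, 1465 and 2634 CPM, so the lowest Purkinje value lay above the highest Golgi value. The log2 difference between Purkinje and Golgi cells was 1.20 (SE 0.30, adjusted p = 0.00191). Below them, Golgi cells did not differ from unipolar brush cells in the test (log2 difference 0.51, SE 0.34, adjusted p = 0.444). Unipolar brush cells had 1315 CPM in the Control female, 1321 in the LPS female and 2253 in the LPS male. Each of these lay below the Golgi value of its library. The granule lineage, at 1337, 1647, 895 and 2488 CPM, lay in the same middle group as molecular layer and PAX2 interneurons. Endothelial cells were at the low end with 169, 345, 48.7 and 86.6 CPM.

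CACNA1B, the N-type subunit of presynaptic terminals, was more evenly spread over the neuronal classes. Golgi cells had 778, 2428, 641 and 2413 CPM, Purkinje cells 631, 2225, 708 and 1182, and molecular layer interneurons 564, 1863, 473 and 1327, in the order Control female, Control male, LPS female and LPS male, which is kept for every list of 4 values below. In all of these the 2 male libraries were above the 2 female libraries. Along the 14 classes ranked by level, a single pair of neighbours differed in the test, the granule lineage above the oligodendrocyte lineage (log2 difference 1.38, SE 0.33, adjusted p = 0.000751).

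CACNA1E, the R-type subunit, was highest in unipolar brush cells, excitatory interneurons of the granular layer, with 969, 1054 and 872 CPM in the 3 libraries used and 941 in the 8 nuclei of the Control male. It stood at 429, 425, 413 and 592 CPM in the granule lineage. The values of unipolar brush cells did not overlap with them, and the log2 difference was 0.85 (SE 0.25, adjusted p = 0.021). Golgi cells, with 423, 364, 373 and 617 CPM, came next and exceeded astrocytes by 0.64 on the log2 scale (adjusted p = 0.0242). Its lowest levels were in endothelial cells, at 44.2, 42, 17.2 and 97.5 CPM.

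CACNA1C, the L-type subunit that also serves the contraction of smooth muscle and heart, was highest in Golgi cells at 604, 673, 333 and 989 CPM, followed by unipolar brush cells and by the granule lineage at 240, 343, 241 and 373 CPM. No pair of neighbours among the 14 classes differed for this gene. In mural cells, the contractile cells of the vessel wall, which were too few to test, 31, 21, 14 and 9 UMIs were counted, which is 1133 CPM (exact 95% Poisson interval 770 to 1609), 885 (548 to 1352), 393 (215 to 659) and 761 (348 to 1444). These intervals, which cover counting error only, include or exceed the Golgi level in every library. Molecular layer interneurons were low for CACNA1C, at 16.2, 88.7, 30.5 and 92 CPM.

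CACNA1D, the L-type subunit that opens at lower voltage and takes part in pacemaking, had another order. It was highest in molecular layer interneurons, the stellate and basket cells, with 455, 597, 327 and 913 CPM (mean 573 ± 252, SD, n = 4). The marker score that gave this cluster its name, 1.45, was close to its score for the next class, 1.39. CACNA1D was close to that in Golgi cells with 415, 389, 313 and 585 CPM. These classes overlapped and did not differ in the test (log2 difference 0.41, adjusted p = 0.371). PAX2 immature interneurons, the precursors of inhibitory interneurons, followed with 175, 198, 201 and 341 CPM, below Golgi cells by 0.97 on the log2 scale (adjusted p = 0.00147). The granule lineage had only 40, 38.5, 35.6 and 68.3 CPM. Microglia were at 6, 0, 3.76 and 54.9 CPM, highest in the LPS male, which had 43 nuclei of this class. In that library free RNA made up an estimated 32% of the UMIs of microglia and held 78.8 CPM of CACNA1D. Its part in that level was not tested.

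CACNA1G, the T-type subunit of burst-firing neurons, was highest in Purkinje cells with 591, 1085, 339 and 1632 CPM (mean 912 ± 571, SD, n = 4). The granule lineage followed with 241, 457, 170 and 361 CPM, and the log2 difference was 1.48 (SE 0.22, adjusted p = 2.51e-07). The groups of values overlapped, since the LPS female Purkinje cells lay below the Control male granule nuclei, but in each library the Purkinje level was the higher of the pair. Unipolar brush cells exceeded Golgi cells by 1.01 on the log2 scale (adjusted p = 0.0366).

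The other T-type genes were sparse. CACNA1H had its largest level in unipolar brush cells, from 6, 4, 1 and 10 UMIs, and the log2 difference from the granule lineage was 2.59 (SE 0.55, adjusted p = 0.00063). Purkinje nuclei held a single library with any CACNA1H UMI, the Control male at 2.56 CPM. CACNA1I was counted in Purkinje cells in every library, with 10, 26, 9 and 5 UMIs, which is 16.1, 66.5, 19.5 and 39.4 CPM, and in PAX2 immature interneurons at 9.2, 22.7, 7.65 and 39 CPM. In unipolar brush cells all of its 14 UMIs came from the LPS male.

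**Figure D2:**
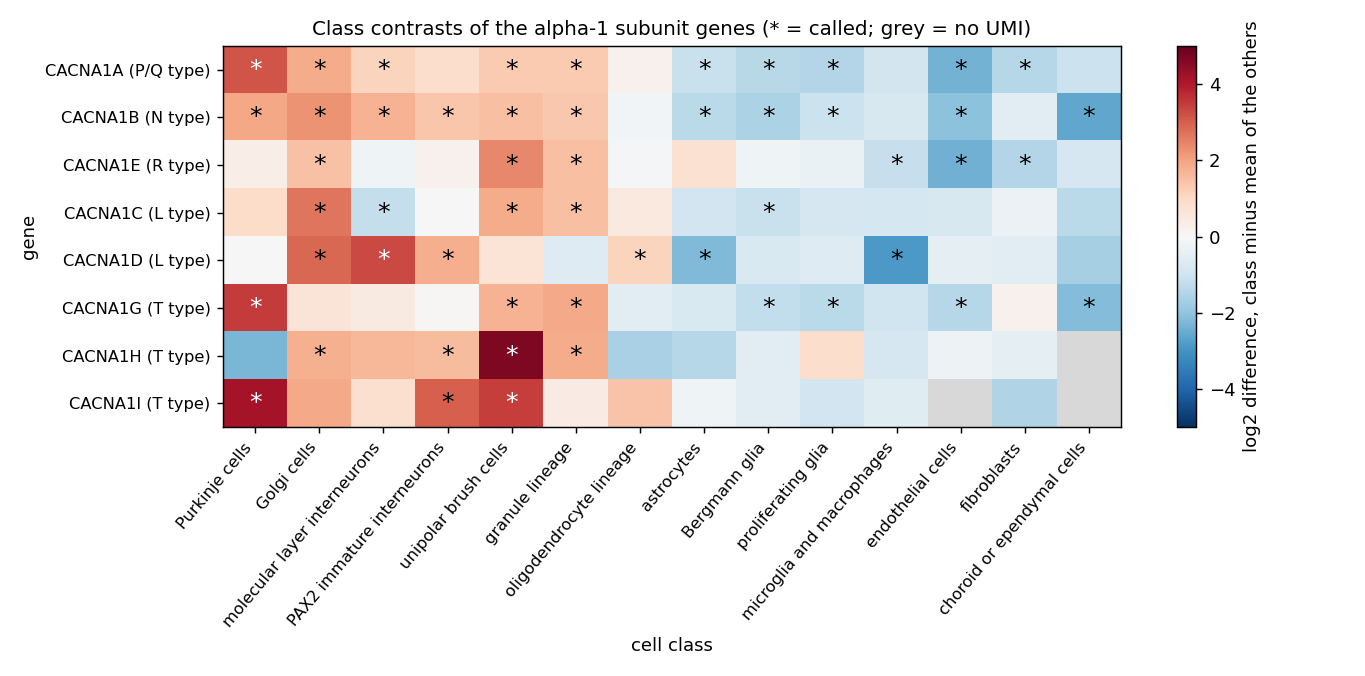
Log2 difference of each alpha-1 gene (rows) in a class (columns) from the mean of the other classes, as colour from blue (lower) to red (higher), with an asterisk where the gene was called and grey where the class held no UMI of it. Red asterisked cells stand mostly on the left, under the neuronal classes. Among them are 4.17 for CACNA1I and 3.50 for CACNA1G in Purkinje cells and 4.65 for CACNA1H in unipolar brush cells. Outside the neurons CACNA1D is red in the oligodendrocyte lineage (1.11). Blue asterisked cells stand under glia, vessels, meninges, microglia and choroid, apart from CACNA1C in molecular layer interneurons (−1.20).

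Taken by class, Purkinje cells had 4 of the 8 genes called higher, where 14.3% of all genes tested were called higher. The log2 difference from the mean of the other classes was 3.14 for CACNA1A (SE 0.17, adjusted p = 6.89e-22), 3.50 for CACNA1G (SE 0.15, adjusted p = 8.09e-26), 4.17 for CACNA1I (SE 0.55, adjusted p = 1.81e-08) and 1.94 for CACNA1B (SE 0.21, adjusted p = 7.34e-11). The L-type genes, CACNA1E and CACNA1H were not called there. CACNA1C (0.90) missed the size limit. The median difference of the 8 genes was 1.42 beside −0.03 over all genes.

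Golgi cells had 6 genes called higher, at a background of 11.9%. Both L-type genes were among them, CACNA1C at 2.69 (SE 0.16, adjusted p = 4.06e-20) and CACNA1D at 2.87 (SE 0.17, adjusted p = 9.86e-20), with CACNA1B at 2.26, CACNA1A at 1.84, CACNA1E at 1.46 and CACNA1H at 1.79 on the log2 scale. The call of CACNA1H rested on few UMIs and was lost without the Control female (1.58, adjusted p = 0.135) or without the Control male (2.49, adjusted p = 0.082). It was also lost with all 4 libraries when the library block was left out (2.03, adjusted p = 0.0799). CACNA1G and CACNA1I were not called in Golgi cells.

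Unipolar brush cells had 7 genes called higher, at a background of 5.96%. The largest differences were 4.65 for CACNA1H (SE 0.64, adjusted p = 2.09e-07) and 2.41 for CACNA1E (SE 0.19, adjusted p = 7.73e-15). CACNA1D was not called, and the call of CACNA1B (1.51) was lost without the library block (1.25, adjusted p = 0.0957). The estimate for CACNA1I (3.44, adjusted p = 0.00533) came from the LPS male alone, and without that library, where no UMI of the gene remained in the class, it was −4.12.

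The granule lineage had 6 genes called higher, at a background of 10.1%. CACNA1G stood at 1.91 (SE 0.15, adjusted p = 3.73e-15), CACNA1H at 1.86, CACNA1C and CACNA1E at 1.50, CACNA1B at 1.34 and CACNA1A at 1.29 on the log2 scale. CACNA1D, highest in the inhibitory interneurons, was not called in granule nuclei, and neither was CACNA1I. The median over the 8 genes was 1.42, beside 0.16 over all genes.

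The inhibitory interneurons of the molecular layer had 3 genes called higher, at a background of 9.15%, and 1 called lower, at a background of 6.15%. CACNA1D was higher by 3.31 (SE 0.16, adjusted p = 6.37e-23), CACNA1B by 1.72 and CACNA1A by 1.11, and CACNA1C was lower, with a log2 difference of −1.20 (adjusted p = 0.00035). The finer clustering left CACNA1A at 0.83 and CACNA1C at −0.38, neither of which was called, and without the Control female CACNA1C was at −0.89. Their presumed precursors, the PAX2 immature interneurons, had 4 called higher, at a background of 7.77%, with CACNA1D at 1.82 (SE 0.17, adjusted p = 8.97e-13), CACNA1B at 1.38, CACNA1H at 1.60 and CACNA1I at 2.97. CACNA1I fell to 0.04 in these cells with the finer clustering. That clustering left 1115 nuclei in this class and gave a further cluster of 223 nuclei the name of molecular layer interneurons. There CACNA1I was called higher in molecular layer interneurons, which it was not in the main clustering (0.79). CACNA1H was at 1.19 (adjusted p = 0.101) in PAX2 immature interneurons without the LPS male. CACNA1B and CACNA1D were thus the calls of PAX2 immature interneurons that held in every alternative.

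In the non-neuronal classes the oligodendrocyte lineage had 1 gene called higher, CACNA1D at 1.11 (SE 0.20, adjusted p = 1.42e-05), at a background of 9.87%. The Control female had 251 CPM and the other libraries 61.1, 105 and 116, and without the Control female the difference was 0.50 (adjusted p = 0.134). Bergmann glia had 4 genes called lower (background 4.13%), astrocytes 3 (2.70%), proliferating glia 3 (3.91%), endothelial cells 4 (11.8%), fibroblasts 2 (7.35%), microglia and macrophages 2 (9.73%) and choroid or ependymal cells 2 (5.86%). CACNA1A was the lowest relative to the other classes in endothelial cells, at −2.38 (SE 0.30, adjusted p = 2.26e-09), as was CACNA1E at −2.40 (SE 0.29, adjusted p = 6.31e-10), and CACNA1D was low in microglia, at −2.86 (SE 0.43, adjusted p = 2.64e-07), and in astrocytes, at −2.21. The calls of CACNA1G in Bergmann glia, proliferating glia and endothelial cells (−1.23, −1.35 and −1.41) were lost without the LPS female (−0.58, −0.55 and −0.63), a setting in which the choroid sum, part of the mean of the other classes, held no UMI of this gene. In choroid or ependymal cells the call of CACNA1G (−2.18) was lost in 7 of 11 alternatives, DESeq2 among them (−1.74, adjusted p = 0.121), and that of CACNA1B (−2.59) was lost without doublets (−2.15), with free RNA subtracted (−2.26) and without the LPS male (−1.68). CACNA1E in microglia (−1.14) fell short of the size limit without the Control female (−0.90) or the Control male (−0.91). In astrocytes CACNA1A (−1.13) was lost without the LPS female (−0.98), and CACNA1B (−1.34) without the library block (−1.20, adjusted p = 0.095). In proliferating glia CACNA1B (−1.09) was lost without the library block (−1.02), the LPS male (−0.95) or the LPS female (−0.94).

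The share of nuclei with a UMI was examined for CACNA1A in mature granule nuclei and microglia. In mature granule nuclei, with a median of 3386 UMIs, a CACNA1A UMI was found in 99.4%, 95.6%, 98.7% and 99.8% of nuclei. Microglia, with a median of 3302 UMIs, had one in 30.1%, 40%, 21.3% and 60.5%. After each nucleus was thinned to 1000 UMIs the shares were 84.1%, 88%, 74.8% and 95.1% in mature granule nuclei and 11.8%, 23.8%, 8.46% and 46.2% in microglia. The LPS male was highest in both. In that library the free RNA itself held 1526 CPM of CACNA1A and made up an estimated 32% of the UMIs of microglia, beside 13.5% to 23% in the other libraries, and the microglial level was 1417 CPM beside 150 to 392. The part of free RNA in that level was not tested. CACNA1A was not called in microglia against the other classes or between LPS and Control, either before or after a subtraction of free RNA. These calls therefore cannot show that part.

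The partners of the alpha-1 subunits followed the classes gene by gene. Of the 8 auxiliary subunits, the alpha-2-delta and beta proteins that bring the pore to the membrane and tune it, 3 were called higher and 1 lower in Purkinje cells, where 14.3% of all genes were higher and 10.5% lower. These were CACNA2D2 (log2 difference 2.55), CACNA2D4 (2.54) and CACNB4 (2.20), against CACNA2D3 at −2.22. In Golgi cells 4 were higher and 2 lower, beside 11.9% and 6.53% of all genes, with CACNA2D3 at 3.60 and CACNA2D1 at −1.87. In the granule lineage 3 were higher, led by CACNA2D1 at 2.43, and none was lower, beside 10.1% and 4.35% of all genes. CACNA2D3 was not called in the granule lineage (0.30, adjusted p = 0.375). The medians over the 8 auxiliary genes (0.63 in Purkinje, 1.27 in Golgi and 0.81 in granule cells) stood below those of the alpha-1 genes (1.42, 1.88 and 1.42).

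Genes of the release machinery and of internal calcium stores were also counted. Of 13 active zone genes tested, 7 were called higher and 2 lower in Purkinje cells, and the counts in the granule lineage were also 7 and 2, to be read against the same shares of all genes. UNC13C, which primes synaptic vesicles, was higher in the granule lineage (2.59) and lower in Purkinje cells (−1.44), and UNC13B was the reverse (−1.54 and 2.29). Of 14 store, pump and exchanger genes tested, 6 were higher and 3 lower in Purkinje cells, led by the inositol trisphosphate receptor ITPR1 (7.97), the ryanodine receptor RYR1 (5.80) and the calcium pump ATP2A3 (5.52). The counts in granule nuclei were again 6 and 3, with RYR2 at 1.97 and RYR1 at −1.52. Of the other pore genes, the sodium leak channel NALCN was called higher in the granule lineage (1.46), molecular layer interneurons (1.26), unipolar brush cells (1.20) and PAX2 immature interneurons (1.02), and CACNA1F, another L-type alpha-1 gene of at most 14.2 CPM in any class, was called higher in molecular layer interneurons (1.65, adjusted p = 0.0173). CACNA1S was at most 4.71 CPM.

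Within the granule lineage each stage was tested against the mean of the other stages by the same test over 12510 genes. With mature nuclei against proliferating precursors as a further contrast, 15 of 56 tests of the 8 genes were called higher and 8 lower. Mature nuclei had 5 genes called higher (background 9.67%), the stage labelled later 3 (8.85%) and maturing nuclei 1 (3.81%), and proliferating precursors had 2 called lower (9.31%), committing nuclei 4 (9.09%) and migrating nuclei 2 (9.33%). Of these calls, 6 came from the contrast between the ends of the series, in which 6 of the 8 were higher at a background of 15.4%, with a median difference of 1.65 beside 0.04 over all genes.

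**Figure D3:**
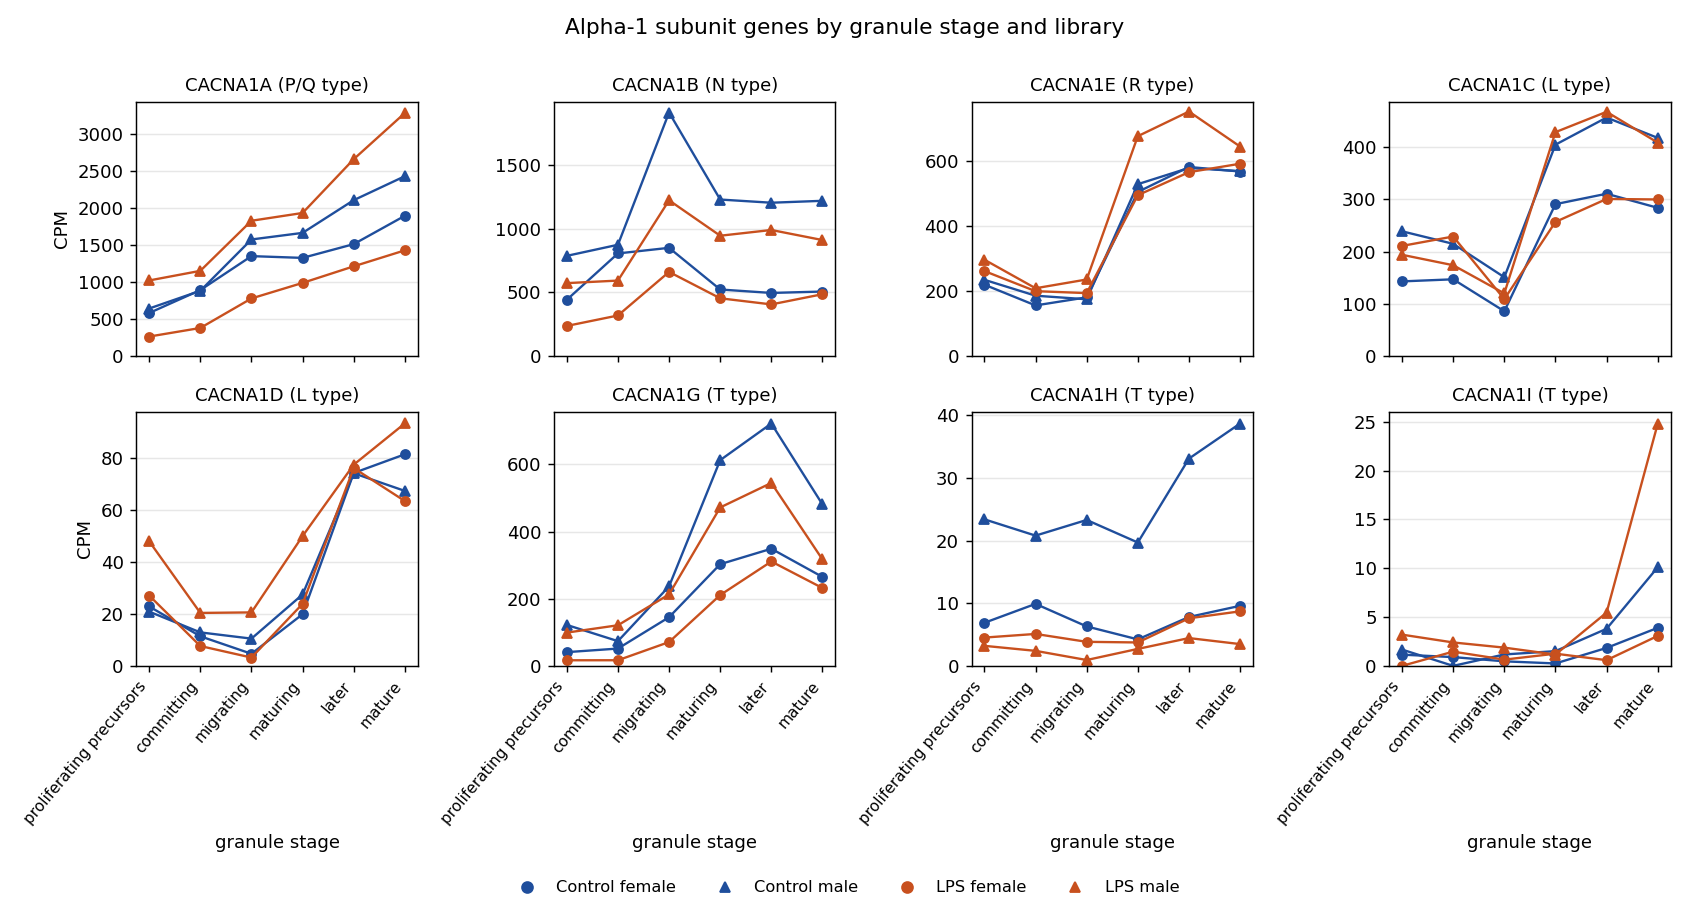
Level of each alpha-1 gene (1 panel a gene, each with its own vertical scale in CPM from 0) along the 6 granule stages, 1 line per library, blue for Control and orange for LPS, circles for females and triangles for males. CACNA1A is lowest in proliferating precursors and highest in mature nuclei, CACNA1B peaks in migrating nuclei, CACNA1C dips at the migrating stage and CACNA1D at the committing and migrating stages, and CACNA1I rises in mature nuclei, most in the LPS male.

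CACNA1A was lowest at the start of the series and highest at its end. Proliferating precursors had 581, 642, 263 and 1021 CPM, migrating nuclei 1350, 1575, 778 and 1828, and mature nuclei 1895, 2430, 1428 and 3284, and the lowest and the highest stage were these ends in each of the 4 libraries. Mature nuclei exceeded precursors by 2.25 on the log2 scale (SE 0.13, adjusted p = 2.62e-12). The steepest step between neighbours was from committing to migrating nuclei, at 1.06 (SE 0.13, adjusted p = 6.05e-07), whereas migrating and maturing nuclei (0.20, adjusted p = 0.235) and later and mature nuclei (0.21, adjusted p = 0.421) did not differ in the test. The lower call in committing nuclei (−1.09) was just inside the size limit and was −0.98 without the LPS female.

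CACNA1B had its highest level in migrating nuclei in each of the 4 libraries, at 849, 1911, 660 and 1222 CPM, and its lowest in proliferating precursors, at 441, 786, 236 and 572 CPM. Migrating nuclei exceeded the next stage, maturing nuclei, by 0.48 on the log2 scale (SE 0.15, adjusted p = 0.0165). None of its 7 stage tests passed the size limit of 1, and the difference of migrating nuclei from the mean of the other stages was 0.78 (SE 0.11, adjusted p = 5.1e-06). Its difference between mature nuclei and precursors was 0.96, and it was called when doublets were removed (1.03) or free RNA was subtracted (1.09). N-type channels are known to take part in the migration of granule cells.

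CACNA1E moved between a low early and a high late level. It had 220, 235, 262 and 297 CPM in precursors, 156, 186, 200 and 209 in committing nuclei and 506, 530, 496 and 678 in maturing nuclei. The log2 step from precursors to maturing nuclei, neighbours in the ranking, was 1.44 (SE 0.08, adjusted p = 8.54e-13). Later and mature nuclei stayed high, with differences from the other stages of 1.19 and 1.06.

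Both L-type genes had low levels in migrating nuclei. CACNA1C had 85.8, 151, 109 and 120 CPM in migrating nuclei, the lowest stage in each of the 4 libraries, and 311, 457, 301 and 468 CPM in later nuclei, the highest. The groups of values did not overlap, and migrating nuclei were at −1.24 against the other stages (SE 0.11, adjusted p = 2.51e-09). CACNA1D had 11.4, 12.9, 7.65 and 20.4 CPM in committing nuclei, 4.66, 10.5, 3.2 and 20.6 in migrating nuclei and 81.5, 67.4, 63.5 and 93.4 in mature nuclei. Mature nuclei did not overlap with the other 2 stages, and migrating and mature nuclei stood at −2.20 (SE 0.26, adjusted p = 3.55e-07) and 1.91 (SE 0.16, adjusted p = 1.45e-09) against the rest. Migrating nuclei were lowest in 3 of 4 libraries and committing nuclei in the LPS male, and these stages did not differ in the test (0.40, adjusted p = 0.428). Its precursors, at 22.9, 20.9, 27.1 and 48 CPM, lay above committing nuclei by 1.28 on the log2 scale (adjusted p = 0.00481), so the course of CACNA1D was a dip and a rise rather than a steady climb.

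Among the T-type genes, CACNA1G rose from 40.9, 122, 16.7 and 99.1 CPM in precursors to 349, 722, 311 and 545 CPM in later nuclei, the highest stage in each of the 4 libraries, and these values did not overlap. Mature nuclei, at 265, 481, 232 and 317 CPM, were below later nuclei in every library, but the 2 stages were not separated from the neighbours between them in the ranking test. The difference between mature nuclei and precursors was 2.77 (SE 0.26, adjusted p = 3.91e-09), and the call of mature nuclei against the other stages (1.19) fell to 0.96 without the LPS female. CACNA1I was highest in mature nuclei in each library, with 13, 13, 6 and 128 UMIs or 3.9, 10.1, 3.07 and 24.8 CPM, at 2.84 against the other stages (SE 0.31, adjusted p = 6.34e-08). CACNA1H was called in no stage, and its mature level exceeded that of precursors by 0.93 (SE 0.21, adjusted p = 0.000684), below the size limit.

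Along the same axis, mature nuclei against precursors, the beta subunit CACNB4 was the only auxiliary gene called, at 2.92, and CACNA1F was called at 1.81. This contrast called 15.4% of all genes higher and 14.6% lower. Of 13 active zone genes 8 were higher and 1 lower, with UNC13C at 4.28 and the scaffold PCLO at 2.62. Of 14 store, pump and exchanger genes 7 were higher and 1 lower, with RYR2 at 2.94 and the exchanger SLC8A2 at 2.79. In migrating nuclei 3 auxiliary genes were lower, CACNA2D3 at −2.84, CACNB2 at −1.76 and CACNB4 at −1.39, at a background of 9.33%.

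The study asked how exposure to LPS alters the fetal cerebellum. LPS was compared with Control by edgeR in 12 classes, the granule lineage included, and in the 6 granule stages, with calls where the log2 difference exceeded 0.25 in either direction and the adjusted p was below 0.1. None of the 119 tests of the 8 genes was called, and 0% of all genes were called in every one of these comparisons. Before adjustment 8 of the 119 had a p under 0.05 in edgeR and 9 in DESeq2, which also called none. Of the 8 in edgeR, 3 were CACNA1H, in the granule lineage and in its committing and migrating stages, which share nuclei. Over all genes tested, the edgeR counts under 0.05 ran from 14 of 7039 in Golgi cells to 158 of 8636 in fibroblasts. Over all 14892 genes of the granule lineage, 27 had an unadjusted p under 0.05 in edgeR and 61 in DESeq2. With 2 libraries a group and no term for sex in the fit, the standard errors were wide. For CACNA1A in the granule lineage the standard error was 0.56 on the log2 scale, so this fit could not detect a moderate change. The spread within a group included the difference between its female and its male. A fit with sex as a block also called none of the 8 genes.

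**Figure D4:**
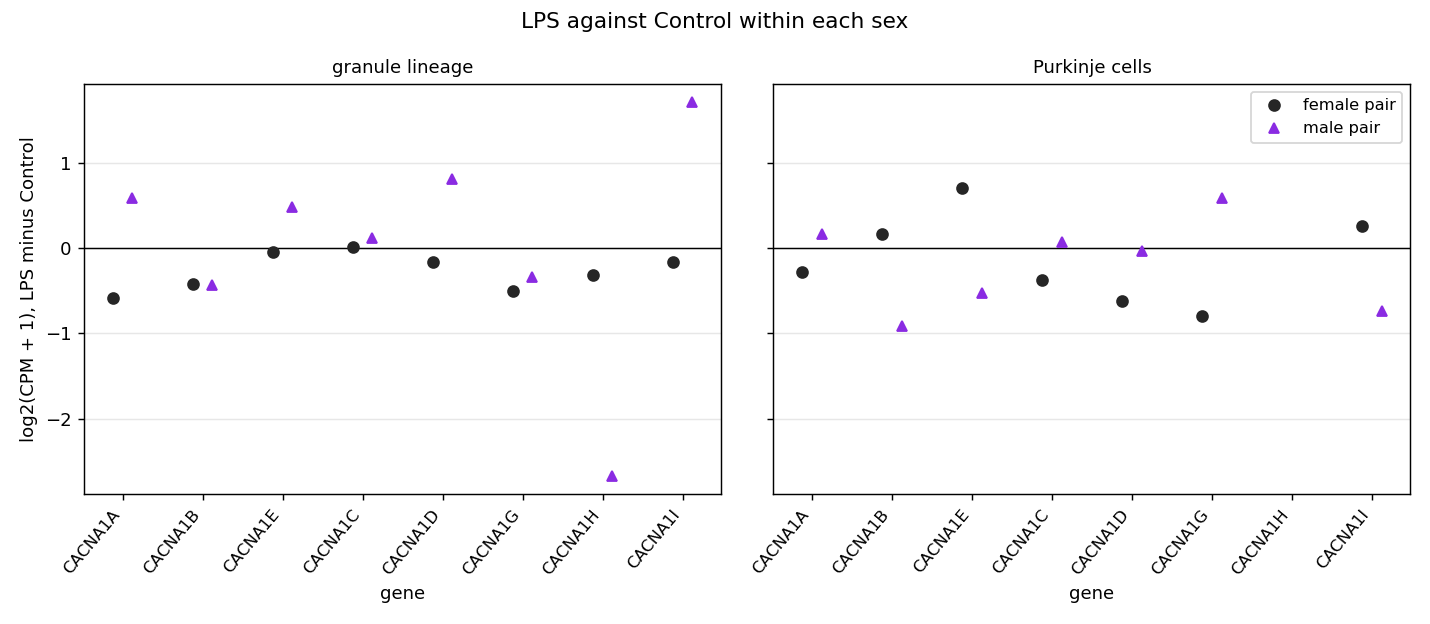
Difference of LPS from Control on the log2(CPM + 1) scale within the female pair (circles) and the male pair (triangles) of libraries, for each alpha-1 gene, in the granule lineage (left) and in Purkinje cells (right, where CACNA1H was not tested); each point is a difference of 2 single libraries. In the granule lineage CACNA1A goes from −0.58 in females to 0.59 in males, CACNA1B is at −0.42 and −0.43, and CACNA1H is at −0.31 and −2.67.

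In the granule lineage CACNA1A had 1337 and 1647 CPM in the Control female and male and 895 and 2488 CPM in the LPS female and male. The LPS libraries were the lowest and the highest of the 4, and the same held in each of the 6 stages. The log2 difference was 0.19 (SE 0.56, adjusted p = 1), made of −0.58 between the females and 0.59 between the males. The share of mature nuclei, where the gene is highest, was 9.16%, 9.33%, 7.75% and 35% of granule nuclei in the Control female, Control male, LPS female and LPS male, and its part in the levels was not tested. Over single stages the fitted LPS difference was −0.22 to 0.11. The free RNA of the libraries had the same order, at 787, 1197, 508 and 1526 CPM. Its part in the levels was not tested, since none of the 8 genes was called before or after a subtraction of free RNA.

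CACNA1B, at 581 and 1233 CPM in Control and 434 and 915 in LPS, was lower in the exposed fetus of either sex (−0.42 and −0.43), but the groups overlapped, because both males were above both females. The fitted difference was −0.40 (SE 0.53, adjusted p = 1). CACNA1G, at 241 and 457 CPM in Control and 170 and 361 in LPS, had the same arrangement, with −0.50 in females and −0.34 in males. CACNA1E had a fitted LPS difference above 0 in 18 of 18 tests, which share the same 4 libraries and were not called. Its unadjusted edgeR p was under 0.05 in 1 of them, microglia at 1.72. Its value in the granule lineage was 0.24 (SE 0.32), with opposite signs in the female (−0.05) and male (0.48) pairs, where the Control libraries had 429 and 425 CPM and the LPS libraries 413 and 592. The LPS male was the highest library in each of the 6 stages, and both LPS libraries were above both Control libraries in 4 of them.

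Of the 8 genes, only CACNA1H had groups that did not overlap in the granule lineage. How many of all genes had groups without overlap was not counted, here or in the other classes. With 2 libraries a group, a lack of overlap is a description only. It had 7 and 26.1 CPM in the Control female and male, from 216 and 308 UMIs, and 5.44 and 3.26 CPM in the LPS female and male, from 113 and 44 UMIs. Both LPS libraries were below both Control libraries in each of the 6 stages, which share their libraries and are not separate replicates. The log2 difference was −1.87 (SE 0.71, adjusted p = 1), among the 8 tests with an unadjusted p under 0.05, and without the Control male it was −0.74. In the free RNA the gene had 4.79 and 16.8 CPM in Control and 2.41 and 0.743 in LPS, the same order of the libraries.

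In the other classes nothing was called with all 4 libraries. CACNA1B in fibroblasts was at 90.1 and 184 CPM in Control and 341 and 351 in LPS, without overlap and opposite in sign to the granule lineage, with a log2 difference of 1.33 (SE 0.39, adjusted p = 1). In proliferating glia CACNA1D was at 1.23 and CACNA1G at −1.70, also without overlap and not called. CACNA1D had 34.4 and 34.7 CPM in Control and 57.7 and 117 in LPS. CACNA1G had 31.1 and 92.6 CPM in Control and 17.9 and 16.7 in LPS. The LPS male had only 29 nuclei of this class, so its values for these genes rest on few UMIs. CACNA1A in endothelial cells was at 169 and 345 CPM in Control and 48.7 and 86.6 in LPS, without overlap, with a log2 difference of −1.97 that was not called. The estimated share of free RNA in endothelial cells was 15.3% and 15.1% in Control and 7.52% and 8.26% in LPS. Its part in this difference was not tested, since the difference was called neither before nor after a subtraction of free RNA. Over all alternatives the difference ran from −3.56 to −1.42. Without the Control female it was called at −2.32 (adjusted p = 0.0266), as was CACNA1B at −2.96 (adjusted p = 0.00173), where 72 of 5709 genes (1.26%) were called and the lone Control male was assumed to vary like the LPS libraries. In microglia, without the LPS female, CACNA1A (2.36), CACNA1E (2.33) and CACNA1G (2.51) were called higher in LPS, where 308 of 5980 genes (5.15%) were called. In that setting the LPS male stood alone for its group and was assumed to vary like the Control libraries, and it is the library with 32% free RNA in microglia. In Purkinje cells none of the 7 of these genes that were tested had an unadjusted edgeR p under 0.05 or was called, and CACNA1A was at −0.03 (SE 0.86).

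The larger division among the libraries lay between the males and the females, a comparison added after the data had been seen and fitted with exposure as a term. Of 119 tests of the 8 genes, 37 were called higher and 1 lower in males, beside 10.4% and 10.2% of all genes over the same comparisons. CACNA1B was called higher in 13 of 18 tests, CACNA1G in 12 of 17 and CACNA1E in 1 of 18, tests that share the same 4 libraries and in which the granule lineage is the sum of its stages. The counts include microglia and astrocytes, where free RNA was also higher in the males. In the free RNA CACNA1B was at 703 and 427 CPM in the males and 365 and 258 in the females, and CACNA1G at 234 and 159 against 120 and 69.8. The estimated share of free RNA in microglia was 23% and 32% in the males and 16.8% and 13.5% in the females, and in astrocytes 24.7% and 32.3% against 17.8% and 17.5%. Its part in these calls was not tested outside the granule lineage. In the granule lineage CACNA1B was higher by 1.00 (SE 0.19, adjusted p = 0.0486) and CACNA1G by 0.92 (SE 0.18, adjusted p = 0.0488), at a background of 13.5% of genes higher and 12.7% lower in males. For both genes each male library was above each female library, in Control and in LPS. The same held for CACNA1A, CACNA1C and CACNA1I, which were not called. How many of all genes were divided in this way was not counted. The lower call was CACNA1D in the oligodendrocyte lineage at −0.97 (adjusted p = 0.0654), where the Control female had 251 CPM. The male libraries were also those with fewer UMIs per nucleus and less mitochondrial RNA, so sex and these differences between the pairs of libraries cannot be told apart.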

How the data were processed

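The authors deposited unfiltered matrices of UMI counts per barcode, 1 library per fetus, made with intronic reads included by Cell Ranger (version 4) on Mmul_8.0.1, as the submitters' processing notes give them. Samples were grouped by the exposure in the labels, which carry no replicate numbers. Barcodes with at least 500 genes were kept. They were integrated and clustered with Seurat 5.3.0 (R 4.3.3, resolution 0.5) with the 8 genes and the related calcium genes left out of the features. Clusters were named from the mean standardised level of marker genes, with a class score of at least 1, a limit set after the scores were seen. Clusters in which no class other than the granule lineage reached it were named by their best granule stage score. A cluster with over 50% doublets (scanpy 1.11.5, Scrublet) or with low UMI numbers and no markers of its own stayed unnamed. Doublets were kept in the sums and removed in an alternative. In both male libraries the automatic doublet limit failed, and the median limit of the other libraries was used. Over the series 368 to 637 barcodes a library were marked as doublets.

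UMIs were summed per class and library (at least 10 nuclei) and tested with edgeR 4.0.16 (quasi-likelihood, TMM, filterByExpr), which was tested on simulated data. In sums of counts with 200 changed genes in the granule lineage, 72.7% of the genes changed by a log2 value of 2 and 9.9% of those changed by 1 were called between LPS and Control. The simulated libraries had a common profile, a fixed dispersion and no difference between the sexes. These shares are therefore not the shares to be found in the real libraries. The thresholds of this comparison followed those of the study for granule cells, read here on the log2 scale. Within-sex differences used log2(CPM + 1). The fetuses were separate animals. Alternatives were DESeq2 1.42.0, no filter on low counts, no library block or a sex block, doublets removed, at least 1000 genes, a mitochondrial limit of 5%, free RNA (barcodes with up to 100 UMIs) subtracted, the number of nuclei of the study, resolution 0.8, and each library left out.

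The 8 genes, the gene lists (auxiliary subunits, other pore genes, active zone, and stores, pumps and exchangers) and the tests were chosen with earlier results of these data known. Of the lists, the rule named genes called with the largest differences in the contrast described, and others, among them CACNA2D3 in the granule lineage, NALCN and CACNA1S, were chosen after their values were seen. For each of the 8 genes, the 3 genes outside the lists with the highest correlation over the classes are named in the closing section.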

Additional observations from a re-analysis of the deposited data

Results flagged for a closer look

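In the granule lineage, the LPS difference ran in opposite directions in the female and male pairs for 4 genes, with 1 library per sex and exposure, so the difference between the sexes was not tested. The male minus female value of the LPS difference was 1.17 for CACNA1A (−0.58 in females and 0.59 in males), 0.97 for CACNA1D (−0.16 and 0.81), 0.53 for CACNA1E (−0.05 and 0.48) and 1.87 for CACNA1I (−0.16 and 1.71). For each of the 4 genes the LPS male was the highest of the 4 libraries.

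In Purkinje cells, of which the LPS male had 17 nuclei, 6 genes ran in opposite directions, also untested. The male minus female value was 0.45 for CACNA1A, 0.43 for CACNA1C and 1.39 for CACNA1G, and it was −1.08 for CACNA1B and −1.23 for CACNA1E. For CACNA1I the LPS difference fell by 1.00 from the female pair to the male pair.

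A cluster of 2472 barcodes with a median of 759 UMIs had none of a class's own markers among its leading genes and entered no comparison. It held 24.3% of the barcodes of the LPS male, beside 3.92% in the Control female, 0.789% in the Control male and 2.11% in the LPS female. Its CACNA1A level was 674, 1075, 500 and 1115 CPM in the Control female, Control male, LPS female and LPS male.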

How the results depend on the processing

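Of the 52 class calls of the 8 genes, 35 were called in every alternative, and of the 23 stage calls, 21 were. The number of calls was 47 to 60 for the classes and 23 to 30 for the stages. LPS against Control gave 0 calls over classes and stages in each alternative that kept all 4 libraries, and 0 to 3 when a library was left out. In the granule lineage the LPS difference changed sign with the library left out for 7 genes, with ranges of −0.73 to 0.74 for CACNA1A, −1.04 to 0.16 for CACNA1B, −0.26 to 0.37 for CACNA1C, −0.14 to 0.79 for CACNA1D, −0.05 to 0.47 for CACNA1E, −1.02 to 0.08 for CACNA1G and −0.91 to 2.51 for CACNA1I. CACNA1H stayed below 0, from −2.49 to −0.74. The estimate of CACNA1I in unipolar brush cells ranged from −4.12 to 4.13. The labels give no replicate numbers. A block on sex, which pairs the fetuses of each sex, called none of the 8 genes in any class or stage, and in the granule lineage it called 0 of all genes, with 278 at an unadjusted p under 0.05 in edgeR beside 27 without the block. Thinning the nuclei to 1000 UMIs lowered the mean share of granule nuclei with a UMI to 69.9% for CACNA1A and 1.01% for CACNA1H.

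With 2 fetuses a group and 1 of each sex, a difference between groups was detectable only when large, and the counts of CACNA1H and CACNA1I limit any statement on them. Both LPS fetuses, at 131 and 133 days, were older than both Control fetuses, at 130 days, and the Control group had no injection. Exposure, gestational age and injection therefore cannot be told apart in the LPS differences. Classes with under 20 nuclei in a library, Purkinje and Golgi cells of the LPS male and unipolar brush cells of the LPS female among them, carry more counting error than the granule lineage.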

Other observations

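Across the 14 classes, the genes with the most similar course of log2(CPM + 1) to each alpha-1 gene were looked up among 11012 genes. The classes share their libraries, so the values are descriptions. For CACNA1A they were CAMK2B (Pearson's r = 0.963), PTPRR (0.958) and SRRM3 (0.956), and for CACNA1B they were ACTL6B (0.982), DDX25 (0.969) and SRRM3 (0.965). CACNA1C had ENSMMUG00000048870 (0.952), PLA2G7 (0.881) and ZNF385B (0.865). CACNA1D had ENSMMUG00000048429 (0.939), UNC5C (0.874), highest in molecular layer interneurons, and VWC2 (0.871). CACNA1E shared ZNF385B (0.894) with CACNA1C, followed by ENSMMUG00000002930 (0.884) and SLC35F4 (0.878). For CACNA1G the values were 0.923 for GPATCH8, 0.903 for SERINC2 and 0.901 for ENSMMUG00000007870, for CACNA1H 0.922 for LEMD1, 0.899 for CHGB and 0.89 for KCNK3, and for CACNA1I 0.944 for CAPN14, 0.942 for FGF14 and 0.924 for PSMD5. Among the alpha-1 genes themselves CACNA1A and CACNA1B had an r of 0.895 over the same classes, and CACNA1D and CACNA1E one of 0.236.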
